A study of Mus musculus with 3 samples.

Results

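The genes described here are 10 of the 32285 genes counted in the series, chosen by name as members of the BCL2 family of survival and death genes. The 5 survival genes were Bcl2 (ENSMUSG00000057329), Bcl2l1 (ENSMUSG00000007659), Mcl1 (ENSMUSG00000038612), Bcl2a1b (ENSMUSG00000089929) and Bcl2a1d (ENSMUSG00000099974). The 2 effectors were Bax (ENSMUSG00000003873) and Bak1 (ENSMUSG00000057789), and the 3 BH3-only genes were Bcl2l11 (ENSMUSG00000027381), Bbc3 (ENSMUSG00000002083) and Pmaip1 (ENSMUSG00000024521). No measured value entered the choice of the names, though the list was drawn up with earlier results of these data known. Their unique molecular identifiers (UMIs), each standing for 1 captured transcript, were summed over cells of 3 gates in 3 libraries.

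Cells stained for CD3 had been sorted from digested tumours of MC38, a colon carcinoma line of mouse origin, at day 15 and after 5 days of treatment. Each of the 3 groups, labelled PBS (buffered saline), mix and homo, gave 1 single-cell library. The series title names a LAG3-directed interleukin-2, a T cell growth factor aimed at a checkpoint receptor, but the labels do not say what mix or homo contained, nor how many animals gave a library, nor the strain or age of the mice.

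The BCL2 family sets the threshold at which a cell dies through its mitochondria. Survival proteins such as BCL2, BCL-XL, MCL1 and A1 bind and restrain both the effectors BAX and BAK, which open the outer mitochondrial membrane, and the BH3-only proteins, which trigger that opening. In T cells, cytokines of the common gamma chain are known to sustain Bcl2, antigen receptor and NF-kB signals are known to raise Bcl2l1 and the A1 genes, and the BH3-only protein BIM, from Bcl2l11, is known to remove T cells when an immune response ends.

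After filtering there were 9214, 7588 and 7303 cells in PBS, mix and homo. The CD8 gate held cells with at least 1 UMI of Cd8a or Cd8b1 and none of Cd4 or Foxp3, the CD4 gate cells with Cd4 and none of Cd8a, Cd8b1 or Foxp3, and the Foxp3 gate cells with Foxp3 and neither CD8 gene. The CD8 gate held 7147, 5613 and 6543 cells in PBS, mix and homo, the CD4 gate 327, 323 and 74, and the Foxp3 gate 846, 812 and 124. A CD3 gene was detected in at least 94.6% of the cells of every gate. Median UMIs per CD8-gate cell were 5107, 5640 and 6893 and their mitochondrial share was 0.387%, 0.423% and 0.672%, so homo was the deepest and had the highest mitochondrial share; the part of either in the member values was not tested beyond the thinned values given here. Of all barcodes, 4.07% were over the mitochondrial limit in homo against 0.251% in PBS and 0.307% in mix. Pairs of libraries shared 100 to 131 cell barcodes.

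Levels are given as CPM, a gene's UMIs scaled to the total UMIs of the gate, in the order PBS, mix, homo. Intervals are exact 95% intervals for counting error alone. With 1 library per group there is no test of a treatment, so a difference between libraries has no replicate check. A gene entered a comparison at 50 CPM or more in either library, and was called at 1.5-fold or more apart, which is 0.585 on the log2 scale.

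In the CD8 gate, Bcl2 was the member that set the homo library apart. PBS had 208 CPM (204 to 212), mix 261 (255 to 266) and homo 82.8 (80.3 to 85.3), resting on 8586, 9289 and 4228 UMIs. Homo was thus the lowest and mix the highest, and no pair of intervals overlapped. The log2 ratio of homo over PBS was -1.33 (-1.38 to -1.28), a level 2.51-fold lower. Only 0.761% of the 3023 genes that entered had a lower ratio. Against mix, the log2 ratio of homo was -1.66 (-1.71 to -1.60). Mix over PBS was 0.33 (0.28 to 0.37), short of 1.5-fold but above 98.0% of the 2950 genes that entered.

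The difference was also seen cell by cell. Cells were thinned to 2000 UMIs, and 350, 313 and 423 CD8-gate cells with fewer UMIs were left out. Bcl2 was then detected in 31.2% of CD8-gate cells in PBS (30.1 to 32.4), 36.4% in mix and 16.2% in homo. Before thinning the shares, over all cells of the gate, were 53.8%, 63.4% and 37.9%. The Foxp3 gate, thinned to the same depth, gave 1.11%, 0.844% and 1.85% and is given as the reference share of cells with little Bcl2. The 250 bases before the Bcl2 start, in the RefSeq sequence of GRCm38.p6 on the minus strand of chr1:106714291-106714540, are shown because Bcl2 was the member furthest apart between homo and PBS in this gate.
Bcl2: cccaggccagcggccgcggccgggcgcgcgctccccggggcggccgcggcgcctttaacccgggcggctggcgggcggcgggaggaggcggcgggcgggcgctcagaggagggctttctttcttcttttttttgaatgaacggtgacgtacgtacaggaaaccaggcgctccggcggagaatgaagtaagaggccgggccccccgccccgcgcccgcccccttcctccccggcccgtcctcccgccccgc
This stretch had a GC content of 74.8%. A STAT motif (TTCNNNGAA), a forkhead motif (TGTTTAC) and an NF-kB motif were searched on both strands, and those letters were not in this window, so it is all in lower case.

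Bcl2l1, which encodes BCL-XL, had 36.6 CPM in the CD8 gate of PBS (34.8 to 38.5), 34.0 in that of mix (32.1 to 36.0) and 18.8 in that of homo (17.6 to 20.04). Homo was again the lowest, with a log2 ratio to PBS of -0.96 (-1.08 to -0.84), while PBS and mix overlapped. Bcl2l1 stayed under 50 CPM in every library and so did not enter the count of calls. Mcl1, whose protein is short-lived and is needed by many lymphocytes, stood at 308, 294 and 211 CPM, and its log2 ratio of homo over PBS, -0.54 (-0.58 to -0.51), stopped just short of 1.5-fold. The share of thinned cells with Mcl1 was 45.4%, 45.8% and 34.5%, and that with Bcl2l1 was 7.24%, 7.42% and 3.46%.

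The A1 genes differed less. Bcl2a1b stood at 282 CPM in PBS, 273 in mix and 249 in homo, a log2 ratio of homo over PBS of -0.18 (-0.21 to -0.14). Bcl2a1d stood at 99.3, 120.03 and 81.9 CPM, with log2 ratios of 0.27 (0.21 to 0.34) for mix over PBS and -0.28 (-0.34 to -0.22) for homo over PBS. Mouse A1 is encoded by near-identical neighbouring copies. Their upstream windows, from RefSeq GRCm38.p6, are shown to make that visible: Bcl2a1b on the plus strand of chr9:89199023-89199272 and Bcl2a1d on the minus strand of chr9:88731851-88732100.
Bcl2a1b: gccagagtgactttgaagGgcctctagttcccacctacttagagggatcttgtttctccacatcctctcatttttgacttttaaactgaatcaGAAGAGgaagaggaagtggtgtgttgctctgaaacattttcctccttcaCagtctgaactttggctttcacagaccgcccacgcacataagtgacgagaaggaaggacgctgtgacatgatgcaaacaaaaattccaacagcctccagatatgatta
Bcl2a1d: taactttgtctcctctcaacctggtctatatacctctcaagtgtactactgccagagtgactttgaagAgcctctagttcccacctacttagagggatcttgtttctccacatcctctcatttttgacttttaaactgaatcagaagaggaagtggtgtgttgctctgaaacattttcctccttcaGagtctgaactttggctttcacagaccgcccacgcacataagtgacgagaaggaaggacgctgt
Of 200 aligned bases 198 were identical, and 50 bases of each window had no aligned partner. Capitals mark the bases inside the overlap with no identical partner, which were 2 single differences and a run of 6 bases found in Bcl2a1b alone. Of the 90-base stretches in the last 500 bases of the GENCODE transcripts, 66.2% for Bcl2a1b and 65.2% for Bcl2a1d also occurred in transcripts of other genes, Bcl2a1a among them. The split of reads between the A1 copies is therefore uncertain. For Bax the share was 15.3%, all with Gm45808, and for the other 7 members it was 0.

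A1 is also abundant in myeloid cells, so their markers are given beside it. The 5 neutrophil markers summed to 0.388, 0.0561 and 6.99 CPM in the CD8 gate, with all 5 detected in homo, Cxcr2 at 0 in PBS and S100a9, Csf3r and Retnlg at 0 in mix. The 7 macrophage markers summed to 16.9, 5.16 and 2.86 CPM and the 6 dendritic markers to 13.6, 6.82 and 2.98 CPM, each with all their genes detected in each library. With only cells that had a CD3 gene and none of the markers of macrophages, dendritic cells, neutrophils, B cells, tumour cells or fibroblasts, the log2 ratios of homo over PBS were -0.16 for Bcl2a1b, -0.25 for Bcl2a1d and -1.31 for Bcl2.

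Of the effectors, Bax was lower in homo and Bak1 was not apart from PBS by its interval. Bax stood at 195, 185 and 157 CPM in the CD8 gate, with a log2 ratio of homo over PBS of -0.31 (-0.35 to -0.26). Bak1 stood at 73.2, 77.9 and 73.5 CPM, and the interval of its log2 ratio of homo over PBS ran from -0.06 to 0.07.

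Among the BH3-only genes, Bbc3 was the one member whose interval for homo over PBS lay above 0. This gene, which encodes PUMA, a target of p53 and of FOXO factors, had 13.6 CPM (12.5 to 14.8) for PBS, 14.6 (13.4 to 15.9) for mix and 21.2 (19.9 to 22.5) for homo. PBS and mix overlapped and homo lay above both, with a log2 ratio to PBS of 0.63 (0.49 to 0.78), but the level stayed under 50 CPM. In thinned cells Bbc3 was detected in 2.59%, 2.72% and 4.67%. Bcl2l11, which encodes BIM, stood at 71.1, 79.3 and 65.1 CPM, a log2 ratio of homo over PBS of -0.13 (-0.20 to -0.06). Pmaip1, which encodes NOXA, the BH3-only protein that binds MCL1 and A1, stood at 28.9, 33.7 and 24.1 CPM, with log2 ratios of 0.22 (0.10 to 0.34) for mix over PBS and -0.26 (-0.38 to -0.15) for homo over PBS.

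**Figure D1:**
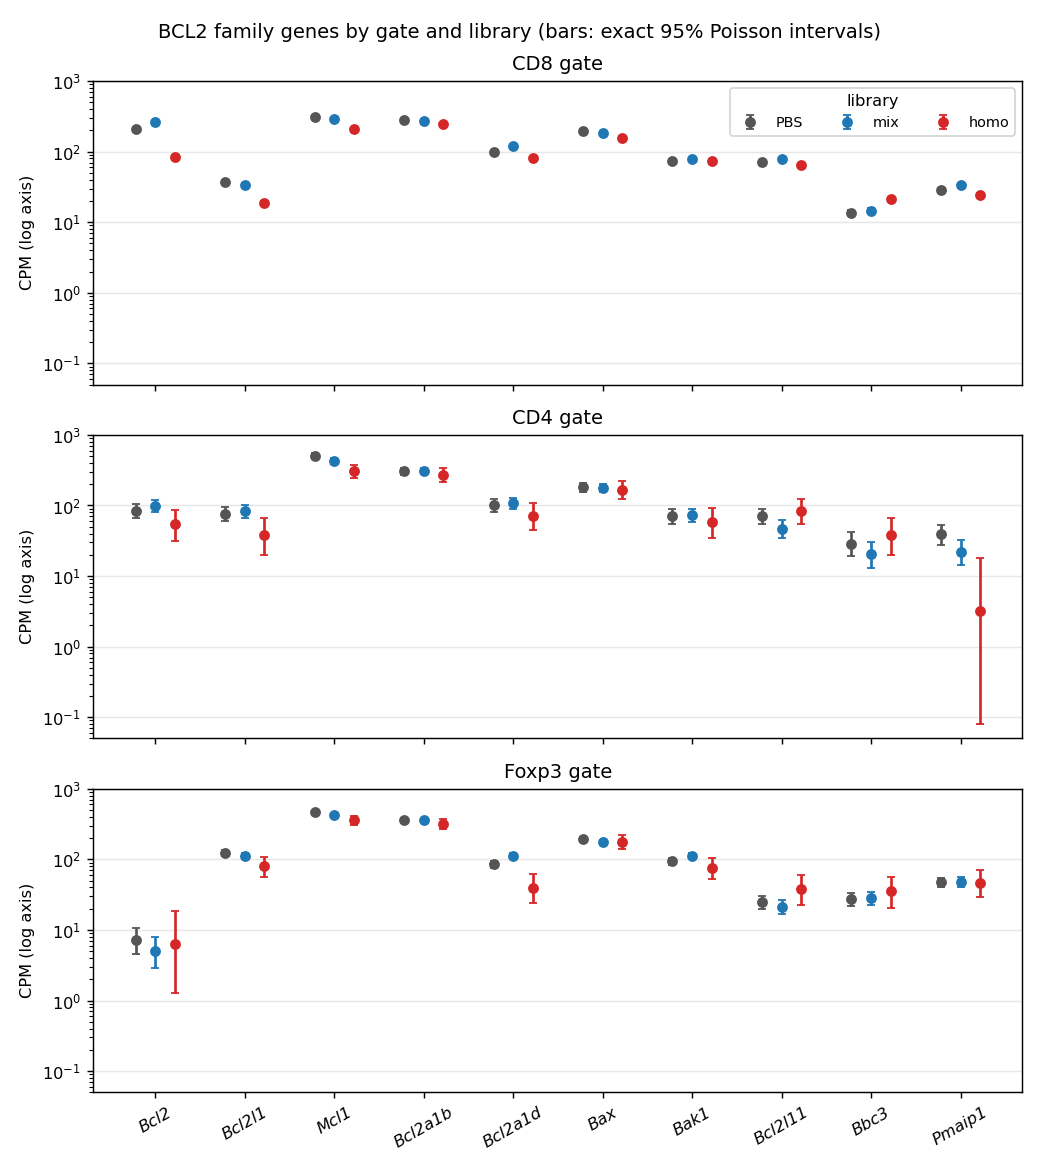
Levels of the 10 genes in CPM (log axis) in the CD8, CD4 and Foxp3 gates; colours are the 3 libraries and bars are exact 95% Poisson intervals. Bcl2 was 82.8 CPM in the CD8 gate of homo against 208 in PBS and 261 in mix, and at most 7.19 CPM in the Foxp3 gate.

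Over the CD8 gate, 7 of the 10 members entered the comparison of homo over PBS and 1 of them, Bcl2, was called, against 7.74% of all genes that entered, 3.08% higher and 4.66% lower. The median log2 ratio of those 7 was -0.28, beside -0.06 over all genes that entered. For homo over mix it was again Bcl2 alone, against 7.65% of all genes, 2.83% higher and 4.82% lower. For mix over PBS no member of 7 was called, against 0.881% of all genes, 0.407% higher and 0.475% lower. The count rests on a single gene. With a minimum of 10 CPM in place of 50, Bcl2l1 and Bbc3 joined Bcl2 in homo over PBS, against 7.80% of all genes at that minimum, and Bcl2l1 joined it in homo over mix, against 7.48%.

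Sums by role were also compared. Survival genes gave 71.0% of the UMIs of the 10 genes in PBS, 71.5% in mix and 65.4% in homo. The effectors gave 20.4%, 19.2% and 23.4%, and the BH3-only genes 8.65%, 9.31% and 11.2%. In CPM the survival sum was 933, 982 and 644, the effector sum 268, 263 and 231, and the BH3-only sum 114, 128 and 110.4. The BH3-only sum was close in PBS and homo, while the survival and effector sums were lower in homo, the survival sum by more. Bcl2 UMIs per Bcl2l11 UMI, a ratio within a library, came to 2.92 (2.80 to 3.05) for PBS, 3.29 (3.15 to 3.43) for mix and 1.27 (1.22 to 1.33) for homo. The CD4 gate gave 1.19, 2.11 and 0.654 and the Foxp3 gate 0.293, 0.233 and 0.167, with homo lowest in each gate and its interval overlapping that of PBS in both smaller gates. Survival genes gave 73.2%, 75.1% and 67.8% of the members' UMIs in the CD4 gate and 72.8%, 72.5% and 68.3% in the Foxp3 gate.

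**Figure D2:**
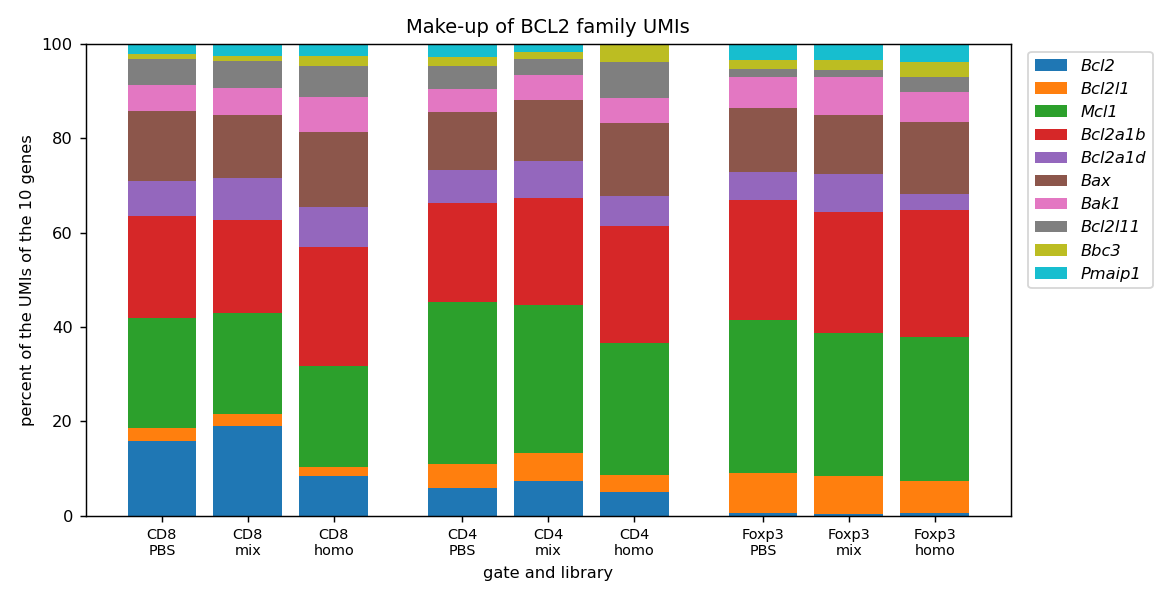
Percent of the UMIs of the 10 genes that each gene gave, for each gate and library (stacked bars from 0 to 100%). Survival genes gave 71.0% in the CD8 gate of PBS and 65.4% in homo, and Bcl2 was a thin band in the Foxp3 gate of each library. UMIs were counted at the 3′ end, so the bands compare one gene between bars rather than genes within a bar.

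**Figure D3:**
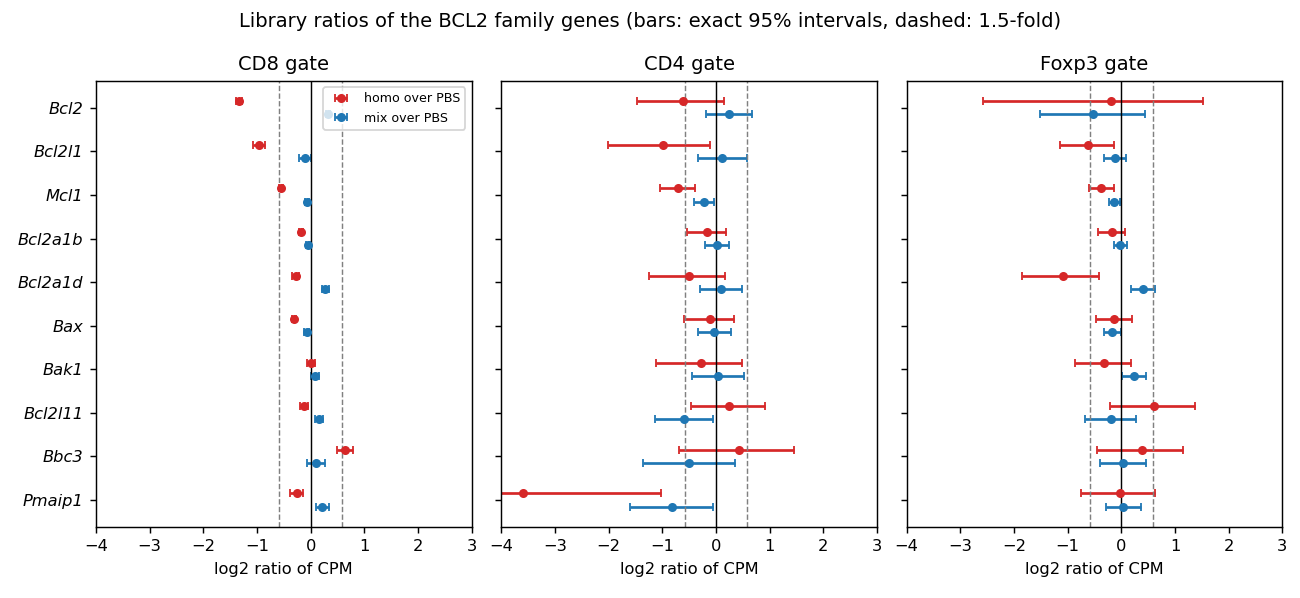
Log2 ratios of CPM, homo over PBS and mix over PBS, for the 10 genes in the 3 gates; bars are exact 95% intervals, the dashed lines mark 1.5-fold and the interval of Pmaip1 in the CD4 gate runs off the left edge to -8.94. Bcl2 of the CD8 gate lay at -1.33 in homo and 0.33 in mix, and intervals were far wider in the small CD4 and Foxp3 gates of homo.

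The CD8 gate was then divided by Tcf7, a transcription factor of progenitor-like exhausted T cells, and Havcr2, which encodes the checkpoint receptor TIM-3 of more exhausted cells. No exhaustion marker was asked of cells with Tcf7 only, so that class is not limited to exhausted cells. At full depth, cells with Tcf7 only made up 9.70%, 11.3% and 10.7% of the gate in PBS, mix and homo. Cells with Havcr2 only made up 43.4%, 44.2% and 49.0%. With classes set on thinned cells, the Tcf7-only shares were 6.09%, 6.98% and 7.53% and the Havcr2-only shares 25.3%, 24.0% and 22.8%. Homo thus had the highest Havcr2-only share at full depth and the lowest at equal depth. Bcl2 was higher in Tcf7-only cells, at 399, 405 and 142 CPM, than in Havcr2-only cells, at 142, 208 and 66.6 CPM. Within a library the log2 ratio of Tcf7-only over Havcr2-only cells was 1.49, 0.96 and 1.09, so the direction was the same in each. Bcl2 in the Tcf7-only cells of homo was close to its level in the Havcr2-only cells of PBS.

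The lower Bcl2 of homo was present in each class. Its log2 ratio of homo over PBS was -1.49 (-1.63 to -1.36) in Tcf7-only cells, -1.09 (-1.17 to -1.01) in Havcr2-only cells, -1.35 (-1.43 to -1.26) in cells with neither gene and -1.33 (-1.76 to -0.89) in the few with both. Cycling cells, with a UMI of Mki67 or Top2a, were 21.3%, 23.1% and 29.8% of the gate at full depth. They had less Bcl2 than the other cells in each library, at log2 ratios of -0.44, -0.24 and -0.58. The ratio of homo over PBS was -1.38 in cycling cells and -1.24 in the rest. Weighting the 8 classes formed by Tcf7, Havcr2 and cycling as in PBS left a log2 ratio of -1.25.

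For mix over PBS, Bcl2 in Havcr2-only cells was at 208 against 142 CPM, a log2 ratio of 0.56 (0.49 to 0.62), while in Tcf7-only cells it was 405 and 399, a log2 ratio of 0.02 (-0.09 to 0.13). The intervals do not overlap, but the difference between classes was not tested. With classes set on thinned cells the values were 0.58 and -1.0e-04.

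The A1 genes and Pmaip1 ran the other way along this division. Bcl2a1b stood at 126, 131 and 165 CPM in Tcf7-only cells and at 337, 310.4 and 276 in Havcr2-only cells, log2 ratios within a library of -1.42, -1.24 and -0.74. For Bcl2a1d they were -1.98, -1.92 and -1.13, and for Pmaip1 -0.93, -0.98 and -0.64. The gap was smallest in homo, where Bcl2a1b was higher than PBS in Tcf7-only cells, by 0.39 (0.22 to 0.56), and lower in Havcr2-only cells. With classes set on thinned cells, an alternative chosen after seeing the data, the value in Tcf7-only cells was 0.10. Bcl2l1 was also lower in Tcf7-only cells, at -0.53, -0.40 and -0.52, while the interval of Mcl1 reached 0 in PBS and mix and its ratio was 0.30 (0.21 to 0.40) in homo.

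The BH3-only genes Bbc3 and Bcl2l11 were higher in Tcf7-only cells. Bbc3 had 23.3 CPM (18.6 to 28.8) in the Tcf7-only cells of PBS, 28.3 (22.8 to 34.7) in those of mix and 52.0 (45.4 to 59.3) in those of homo, against 10.6, 13.0 and 15.3 in Havcr2-only cells. The log2 ratio of homo over PBS was 1.16 (0.79 to 1.54) in Tcf7-only cells and 0.53 (0.30 to 0.77) in Havcr2-only cells, and 1.23 and 0.32 with classes set on thinned cells. Bcl2l11 stood at 88.1, 86.1 and 113 CPM in Tcf7-only cells and at 65.5, 72.3 and 57.8 in Havcr2-only cells. Homo was the highest library for Bcl2l11 in the first class and the lowest in the second. The Tcf7-only cells of homo thus had the lowest Bcl2 of that class and the highest Bbc3 and Bcl2l11.

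Upstream windows of these BH3-only genes are shown because both hold the forkhead motif TGTTTAC, in capitals, as such in Bbc3 and on the opposite strand in Bcl2l11. They are from RefSeq GRCm38.p6, on the plus strand of chr7:16310011-16310260 for Bbc3 and of chr2:128125788-128126037 for Bcl2l11.
Bbc3: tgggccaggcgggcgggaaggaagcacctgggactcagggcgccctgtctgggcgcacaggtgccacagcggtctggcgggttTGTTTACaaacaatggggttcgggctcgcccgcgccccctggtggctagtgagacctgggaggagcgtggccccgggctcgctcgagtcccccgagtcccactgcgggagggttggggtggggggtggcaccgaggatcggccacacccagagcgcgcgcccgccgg
Bcl2l11: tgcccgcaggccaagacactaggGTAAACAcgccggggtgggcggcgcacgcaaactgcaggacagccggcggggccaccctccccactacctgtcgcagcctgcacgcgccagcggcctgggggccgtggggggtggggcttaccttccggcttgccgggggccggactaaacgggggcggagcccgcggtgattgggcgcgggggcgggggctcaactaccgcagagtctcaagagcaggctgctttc
The match lay 161 to 167 bases before the start in Bbc3 and 221 to 227 in Bcl2l11. Of the Bbc3 windows 1 of 3, and of the Bcl2l11 windows 1 of 2, held it. Of the 9 members with a promoter window of 300 bases, Bbc3 and Bcl2l11 held this motif, 2 of 9, as did 4.05% of 27025 genes. A gene counted if any of its windows held the motif, and 3.65% of all 32851 windows did. An NF-kB motif was found for Bbc3 and Bcl2l1, against 9.55% of genes, and a STAT motif for none of the 9, against 9.55% of genes. A match is a description of letters and not of binding.

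**Figure D4:**
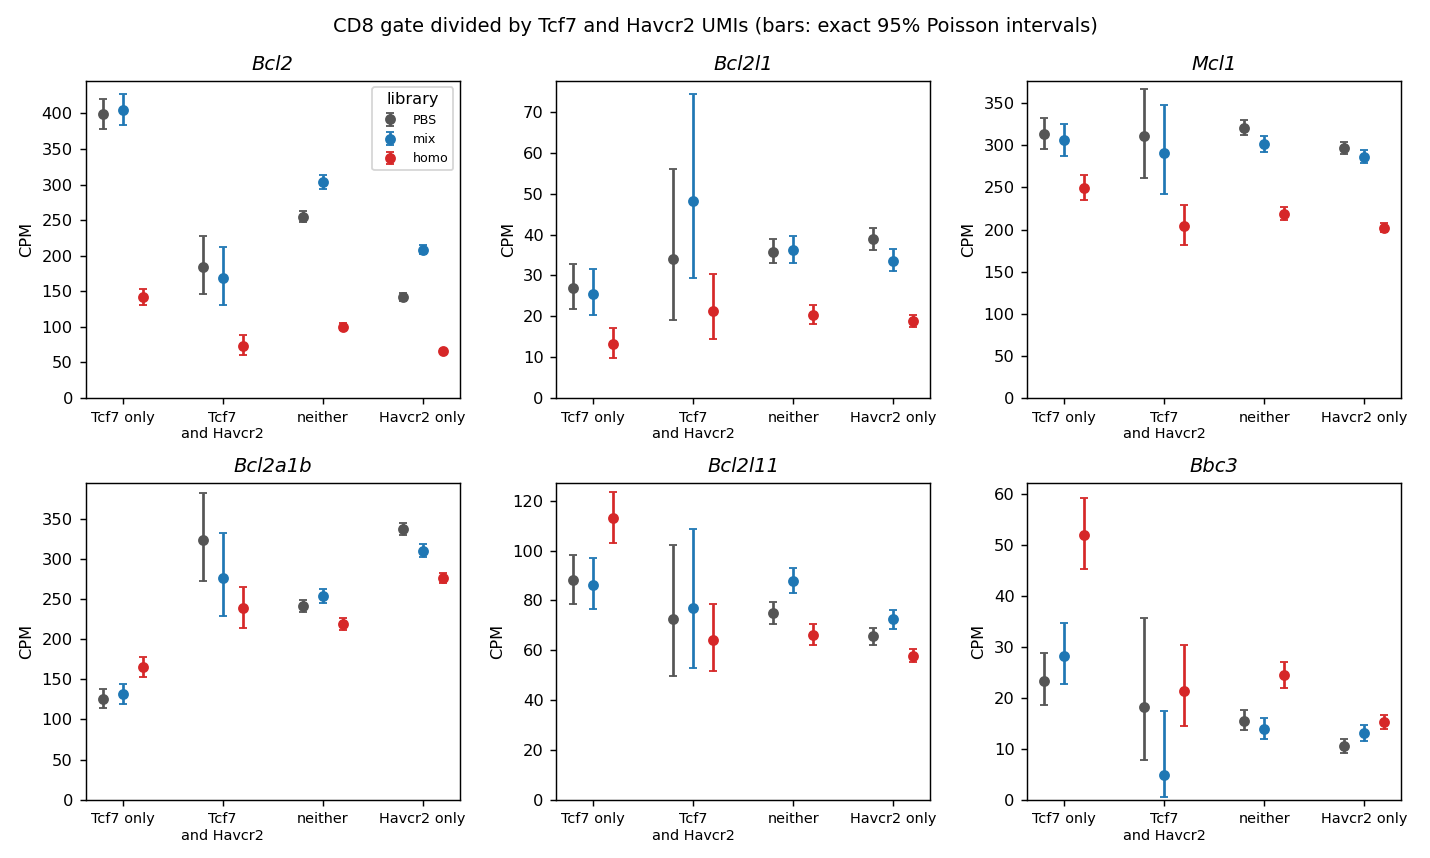
Levels in CPM of 6 genes in CD8-gate cells divided by Tcf7 and Havcr2 UMIs; colours are libraries and bars are exact 95% Poisson intervals. Bcl2 was lower in homo in each class, Bcl2a1b was higher toward Havcr2, and Bbc3 in Tcf7-only cells was 52.0 CPM in homo against 23.3 in PBS.

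Cells of the Foxp3 gate, where Foxp3 marks regulatory T cells, had another make-up. The 5 regulatory T cell markers summed to 5583, 5490 and 4540 CPM there, against 731, 705 and 560.4 in the CD8 gate. Bcl2 stood at 7.19 CPM in PBS, 4.996 in mix and 6.27 in homo, from 24, 17 and 3 UMIs. Within a library the log2 ratio of the Foxp3 gate over the CD8 gate was -4.85 (-5.50 to -4.28) in PBS, -5.71 (-6.49 to -5.03) in mix and -3.72 (-6.00 to -2.17) in homo. Bcl2 could not be compared between libraries in this gate at so few UMIs, with an interval of -2.57 to 1.52 for homo over PBS.

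Bcl2l1 ran opposite to Bcl2. It stood at 123, 112 and 79.5 CPM in the Foxp3 gate, log2 ratios to the CD8 gate of 1.74, 1.72 and 2.08. Mcl1, at 462, 421 and 358 CPM, was also higher there, by log2 ratios of 0.59, 0.52 and 0.76. Bcl2l11 was lower, at 24.6, 21.5 and 37.6 CPM, log2 ratios of -1.53, -1.89 and -0.79. Bbc3 was higher in PBS and mix, by log2 ratios of 0.9996 and 0.93, and its interval reached 0 in homo. For Bax the interval of the ratio between gates held 0 in each library. Bcl2a1b, at 360.5, 356 and 318 CPM, was higher in the Foxp3 gate by 0.35, 0.38 and 0.35. Its copy Bcl2a1d was not higher in the Foxp3 gate. The log2 ratios of that copy were -0.23 (-0.41 to -0.05) in PBS, -0.10 (-0.26 to 0.05) in mix and -1.04 (-1.78 to -0.40) in homo. How reads split between the A1 copies is uncertain in the Foxp3 gate too. Bak1 was at 94.4, 111 and 75.3 CPM there, Bbc3 at 27.3, 27.9 and 35.6 and Pmaip1 at 47.0, 48.2 and 46.0, so Pmaip1 was near the same level in all 3 libraries.

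Between libraries, 6 members entered in the Foxp3 gate. For homo over PBS, Bcl2l1 and Bcl2a1d were called and lower, 2 of 6 against 15.4% of all genes, 8.06% higher and 7.38% lower. The median of the 6 was -0.35, beside 0.02 over all genes. Bcl2l1 had a log2 ratio of -0.62 (-1.14 to -0.14). Bcl2a1d, at 84.8, 112 and 39.7 CPM from 283, 381 and 19 UMIs, had a log2 ratio of -1.09 (-1.85 to -0.42). For homo over mix Bcl2a1d alone was called, at -1.49 (-2.24 to -0.83), against 13.5% of all genes, 6.87% higher and 6.62% lower. Its near-identical copy Bcl2a1b was at -0.18 (-0.43 to 0.06) for homo over PBS and -0.16 (-0.41 to 0.08) for homo over mix. The split of reads between these copies is uncertain, so the Bcl2a1d values do not stand for A1 as a whole. No member of 6 was called for mix over PBS, against 0.763% of all genes, 0.381% higher and 0.381% lower; Bcl2a1d was at 0.40 (0.18 to 0.63).

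The 5 progenitor markers summed to 674, 653 and 1108 CPM in the Foxp3 gate, with Xcl1 at 0 in homo, and the mitochondrial share was 0.292%, 0.310% and 0.649%. Both were highest in homo, and their part in the member values was not tested. Macrophage markers in the Foxp3 gate summed to 43.7, 37.9 and 2.09 CPM, with Adgre1 at 0 in each library and 6 of the 7 at 0 in homo. Tumour epithelial markers summed to 29.1, 31.4 and 33.5 CPM, with Krt8 and Krt19 at 0. With cells holding markers of other cell types removed, Bcl2a1d had a log2 ratio of homo over PBS of -1.38.

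The CD4 gate lay between the other gates for Bcl2 and Bcl2l1 in each library. It also lay between them for the 5 regulatory T cell markers, which summed to 1990, 1949 and 1631 CPM with Foxp3 at 0 by the gate, and their part in the member values was not tested. Bcl2 stood at 84.0, 99.1 and 54.7 CPM, Bcl2l1 at 76.8, 83.2 and 38.6 and Mcl1 at 501, 427 and 306. Homo gave only 74 cells here, and Bcl2 rested on 82, 112 and 17 UMIs. Of the 8 members that entered, Bcl2, Bcl2l1 and Mcl1 were called lower in homo over PBS, at log2 ratios of -0.62 (-1.47 to 0.15), -0.99 (-2.01 to -0.10) and -0.71 (-1.05 to -0.39). That was 3 of 8 against 23.4% of all genes, 9.31% higher and 14.1% lower. The median of the 8 was -0.40, beside -0.03 over all genes. The interval of Bcl2 held 0, and with gates set on thinned cells its ratio was 0.01.

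Bcl2a1b stood at 305, 309 and 270.2 CPM in the CD4 gate, Bcl2a1d at 100.4, 107 and 70.8, Bax at 181, 178 and 167 and Bak1 at 70.7, 72.5 and 57.9. Bbc3 stood at 28.7, 20.3 and 38.6 CPM. The intervals of homo over PBS held 0 for Bax, Bak1, Bcl2a1d and Bcl2l11.

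Other CD4-gate calls rested on few UMIs. For homo over mix 4 of 8 members were called, against 21.9% of all genes, 9.29% higher and 12.6% lower: Bcl2, Bcl2l1 and Bcl2a1d were lower and Bcl2l11 was higher, at 0.83 (0.10 to 1.54). For mix over PBS Bcl2l11 alone was called, at 46.9 against 70.7 CPM and a log2 ratio of -0.59 (-1.14 to -0.05), against 4.85% of all genes, 2.23% higher and 2.62% lower. Pmaip1 was seen once in homo, at 3.22 CPM, with a log2 ratio to PBS of -3.60 (-8.94 to -1.03) on that single UMI. The 3 endothelial markers summed to 58.4, 58.4 and 119 CPM in this gate, with Cdh5 and Kdr at 0 in homo, and the 2 cycling genes to 61.5, 95.5 and 209 CPM, and the part of either in the member values was not tested.

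Genes upstream and downstream of the family were read from 7 lists of 91 genes. In the CD8 gate of homo over PBS, 6 of the 12 NF-kB and costimulation genes that entered were called lower and none higher, with a median log2 ratio of -0.52. Over all genes that entered, 4.66% were lower and 3.08% higher, with a median of -0.06. They included Tnfrsf9, which encodes the costimulatory receptor 4-1BB, at -1.51, Tnfrsf4, which encodes OX40, at -1.42 and Tnfrsf18, which encodes GITR and is also on the regulatory T cell list, at -0.998. Of 11 common gamma chain and STAT5 genes 4 were lower and none was called higher, with a median of -0.36. The lower ones included Cish, a STAT5 target, at -1.24, Myc at -1.04 and Socs1 at -0.95. For homo over mix the same 4 were lower, but Il7r, the interleukin-7 receptor gene, was called higher. Over all genes in that comparison, 4.82% were lower and 2.83% higher. Of the apoptosome and caspase list 3 of 14 entered and all 3 were lower, among them Cycs, which encodes cytochrome c, at -0.70 and Birc2 at -0.64.

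The other lists held fewer calls. Of 17 other BCL2 family genes 3 entered and Bnip3 was lower, at -0.76. None of the 6 death receptor genes, 3 p53 and FOXO genes and 1 MCL1 turnover gene that entered was called. Over all genes that entered for homo over PBS, 7.74% were called. Of the 13 listed p53 and FOXO genes only Trp53, Mdm2 and Ccng1 entered, so no gene of a FOXO factor was read here. The p53 gene Trp53 had a log2 ratio of -0.14, its target Mdm2 -0.12 and Ccng1 0.07, beside 0.63 for Bbc3. For mix over PBS no gene of the 7 lists was called in the CD8 gate, against 0.881% of all genes that entered. Of the common gamma chain and STAT5 list, whose median was -0.001, Myc was at 0.43, Cish at 0.33 and Il7r at -0.33. Comparisons with PBS share that library, so these values are set side by side only.

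The genes whose log2 CPM tracked Bcl2 most closely over the 9 sums of gate and library were Pik3cd and Tmsb10 (Pearson r = 0.98 for both), Eif4b and Lpxn (0.97 for both) and Slc44a2 (0.96), among 2075 genes at 50 CPM or more in all 9 sums. T cell receptor, immunoglobulin, mitochondrial, ribosomal protein and unnamed genes were left out of the 2075. The points share libraries and gates, and the low end of each series was the Foxp3 gate. Bcl2 itself was below that minimum in the Foxp3 gate, so genes as low there were not compared. Pik3cd ran from 61.7 to 142 CPM and Bcl2 from 4.996 to 261 CPM.

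Other markers in the CD8 gate were as follows. Natural killer markers summed to 270.4, 284 and 280.1 CPM, gamma delta T cell markers to 76.5, 100.04 and 155, endothelial markers to 9.98, 11.9 and 19.4, B cell markers to 3.22, 2.86 and 2.72, and tumour epithelial markers to 4.34, 4.66 and 1.61 with Krt8 and Krt19 at 0. Fibroblast markers stayed under 1 CPM. Progenitor markers summed to 418, 357 and 479 CPM and exhaustion markers to 1651, 1676 and 1738. Gamma delta and endothelial markers were highest in homo, where Bcl2 was lowest, and their part in the member values was not tested.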

How the data were processed

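Single-cell 3′ RNA libraries of CD3-sorted tumour cells were compared. The deposited values were raw UMI counts per gene and barcode. Per the file headers the authors' counts came from cellranger 7.1.0. Cell Ranger 2.1.1, Seurat 4.1.0 and the mm39 build stand in the notes on processing given by the submitters. Promoter windows and transcripts are of another build, GRCm38, and were used for sequence only.

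Libraries held 56427870, 49179708 and 65336646 UMIs in PBS, mix and homo. Barcodes with at least 500 genes, 1000 UMIs and under 10% mitochondrial UMIs were kept. The highest Scrublet doublet scores were removed (scanpy 1.11.5), at 0.8% per 1000 barcodes, since Scrublet's own threshold marked 798, 1 and 0. UMIs were summed per gate and library. Log2 ratios carry exact conditional binomial intervals, CPM exact Poisson and shares Clopper-Pearson ones, all for counting error only. Gates and ratios were computed with scipy 1.17.1. The ratios and their intervals, but not the gates, were tested on simulated Poisson counts. The intervals assume the same model, so variation between cells or libraries was not part of that test. No p-value was computed, with 1 library per group.

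The 10 members, the gene lists and the alternatives were chosen with earlier results of these data known. All members are named in every gate, and of each list up to 3 genes with the largest ratio in the CD8 gate, and the 5 genes most correlated with Bcl2. Some genes of the lists are not reported here. The classes of the CD8 gate set on thinned cells were an alternative added after seeing the data.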

Additional observations from a re-analysis of the deposited data

Results flagged for a closer look

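Bcl2l11 and Pmaip1 differed in direction between gates for mix over PBS: Bcl2l11 had a log2 ratio of 0.158 in the CD8 gate and -0.592 in the CD4 gate, and Pmaip1 0.221 and -0.816. For homo over mix, Bcl2l11 was at -0.286 in the CD8 gate and 0.835 in the CD4 gate. Each interval lay on its own side of 0, and the differences between gates were not tested.

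Within the CD8 gate, 3 members were higher in homo in Tcf7-only cells and lower in Havcr2-only cells. Over PBS the log2 ratios were 0.39 and -0.287 for Bcl2a1b, 0.405 and -0.44 for Bcl2a1d, and 0.358 and -0.18 for Bcl2l11. Over mix they were 0.331 and -0.168 for Bcl2a1b, and 0.391 and -0.323 for Bcl2l11. These differences were not tested. With classes set on thinned cells, Bcl2a1b over PBS in Tcf7-only cells was at 0.10 and Bcl2l11 at 0.23.

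Barcodes with both CD8 genes and Foxp3, left out of the gates, numbered 234, 221 and 258, with median UMIs of 6111.5, 6345 and 13177.5. In them Bcl2a1d was at 119 CPM in mix against 85.5 in PBS, and Bcl2l11 was at 56.9 CPM in homo against 35.8 in PBS, above the PBS interval. The part of doublets in these values was not tested.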

How the results depend on the processing

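No paired analysis was possible because each group had 1 library. In the CD8 gate, the log2 ratio of Bcl2 for homo over PBS ran from -1.34 to -1.18 over 11 alternatives, lowest in size with sums of thinned cells, and that of Bbc3 from 0.61 to 0.90. For Bcl2l1 it ran from -1.09 to -0.90 and for Mcl1 from -0.58 to -0.49. For Bak1 it ran from -0.05 to 0.06 and so had no fixed direction. Of 986 member ratios under alternatives, 45 had the other sign, 44 of them of ratios that were not called. In the CD8 gate these were of Bak1 in all comparisons and, for mix over PBS, of Bcl2a1b and Bcl2l1, and of Bcl2 and Bcl2a1b in Tcf7-only cells. The called one was Bcl2 for homo over PBS in the CD4 gate, at 0.0051 with gates set on thinned cells and otherwise from -1.20 (gates without markers of other cells) to -0.54 (totals without mitochondrial and ribosomal genes), reported as -0.62.

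Counts of called members that moved by over 1.5 times were as follows, with the share of all genes at the same setting. In the CD8 gate, a minimum of 10 CPM or none gave 3 for homo over PBS (7.80% and 27.8%) and 2 for homo over mix (7.48% and 25.4%), where 50 CPM gave 1. In the CD4 gate, homo over mix gave 2 with mean per-cell CPM (23.7%), where sums gave 4. For mix over PBS there it was 2 with the lower or no minimum (16.9% and 27.3%), and 0 with gates set on thinned cells, gates without markers of other cells, centred ratios, sums of thinned cells or totals without mitochondrial and ribosomal genes (4.88% to 11.9%). In the Foxp3 gate, homo over mix gave 2 with the lower or no minimum (25.6% and 34.8%, Bcl2l11 added), with gates on thinned cells, mean per-cell CPM, centred ratios or sums of thinned cells (13.2% to 21.8%, Bak1 added), and with gates without markers of other cells (17.1%, Bcl2l1 added). Smaller moves in the CD4 gate included homo over mix at 6 with the lower or no minimum, where Bbc3 and Pmaip1 entered, and homo over PBS at 4, where Pmaip1 entered. The Bcl2 call of homo over PBS was lost there with gates on thinned cells, sums of thinned cells and totals without mitochondrial and ribosomal genes. The lower minimum lets more genes enter; for the others the cause was not tested. Depth limits the CD4 and Foxp3 gates of homo, at 310898 and 478164 UMIs.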

Other observations

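Barcodes over the mitochondrial limit, left out above, came to 347 in homo and to 26 in each of PBS and mix. They were taken without the gene and UMI minimums and, like the kept cells here, without a gate. Only 51 of them in homo, 2 in mix and 0 in PBS met those minimums. Kept cells thus differ from them in depth as well as in mitochondrial share, and the part of each was not tested. CPM is scaled here to UMIs outside mitochondrial genes. In homo the 347 barcodes held 246695 such UMIs, with Bcl2 at 129.7 CPM (88.7 to 183) against 81.4 in kept cells. Bcl2l11, which encodes BIM, was at 126 CPM (85.4 to 178) against 65.1. Bax was lower in them, at 64.9 CPM (37.1 to 105) against 161, and Bcl2a1b at 68.9 CPM (40.1 to 110.3) against 255. No UMI of Bbc3 was seen, which allows up to 15.0 CPM, against 21.6 CPM in kept cells. In PBS and mix such barcodes held 16356 and 18362 UMIs, too few for a comparison.

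Over the CD8 gate, Bbc3 was lower in cycling than in other cells of homo, at a log2 ratio of -0.61 (-0.80 to -0.42), while in PBS and mix the intervals held 0. Bcl2l11 was lower in cycling cells of each library, at -0.40, -0.20 and -0.24.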
